A study of Mus musculus with 7 samples.

Results

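The transcription factors that build skeletal muscle were examined as a set of 10 genes. The set was named from what is known of these genes and not by a measured value, but with earlier results of these data known. The 10 are the myogenic bHLH factors Myod1, Myf5, Myog and Myf6, the MEF2 factors Mef2a, Mef2c and Mef2d, the muscle stem cell factor Pax7, and the inhibitors Id1 and Id3. All 10 were among the 26607 genes listed, and all 10 were among the 19144 genes above 0 in at least 1 library, which were the genes tested. RNA sequencing (RNA-seq) was performed on C2C12 myotubes, a mouse myoblast line that fuses into multinucleated fibers when serum is lowered. Control libraries, from myotubes given no treatment, were numbered 1, 3 and 4, and libraries from myotubes given electrical pulse stimulation (EPS), which makes cultured myotubes contract, were numbered 1 to 4. EPS began 3 days after the switch to differentiation medium, lasted 24 h and left 1 h of rest before the end. C2C12 is a single cell line grown without nerve or vessels, and the labels do not say whether the libraries came from separate cultures, so p-values measure only the spread between these libraries.

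Myogenic bHLH factors pair with E proteins and bind the E-box, a short DNA motif in the control regions of muscle genes. Myf5 and Myod1 set the myoblast identity, Myog drives the exit into fusion and differentiation, and Myf6 is most abundant in mature fibers. Id proteins take up the same E protein partners but have no DNA-binding region, so they hold the myogenic factors off DNA, while MEF2 factors act beside the myogenic bHLH factors on contractile genes. Pax7 marks satellite cells, the stem cells of adult muscle, and the undifferentiated reserve cells of C2C12 cultures.

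Promoters are shown for Myog, Mef2c and Mef2a because they hold motifs of the factors described here. The RefSeq promoter table of GRCm38.p6, 250 bases before to 50 after each start site, held 7 of the 10 genes in 9 windows, and Myod1, Myf6 and Id1 had no entry. Capitals mark the E-box CANNTG, which reads the same on both strands, the sequence TATATTTA, an AT-rich run close to the MEF2 consensus, on either strand, and the MEF2 consensus on either strand. The Myog window, shown for chr1:134289754-134290003 on the plus strand, ends at the base before the start site. The Mef2c window, chr13:83503784-83504033 on the plus strand, is 1 of the 3 windows of that gene. The Mef2a stretch, chr7:67372847-67372874 on the minus strand, spans its start site.
Myog: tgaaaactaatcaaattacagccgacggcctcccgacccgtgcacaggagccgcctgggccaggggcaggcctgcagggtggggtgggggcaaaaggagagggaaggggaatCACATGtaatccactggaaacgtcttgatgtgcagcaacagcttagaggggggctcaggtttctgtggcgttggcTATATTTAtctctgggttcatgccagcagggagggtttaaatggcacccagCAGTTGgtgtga
Mef2c: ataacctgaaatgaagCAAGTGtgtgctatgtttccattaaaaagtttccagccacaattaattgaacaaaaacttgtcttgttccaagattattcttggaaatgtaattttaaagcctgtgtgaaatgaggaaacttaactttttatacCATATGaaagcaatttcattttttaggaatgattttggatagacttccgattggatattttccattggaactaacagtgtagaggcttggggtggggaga
Mef2a: ccgaggcctgactcCTAAAAATAGcccc

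Counted from the RefSeq start site, the E-box matches of Myog began at positions -138 and -12, and TATATTTA began at position -63. The GENCODE start of Myog lies 15 bases further upstream, so the match at -12 is inside the gene by that annotation. Among all 32851 promoters of that table, 72.3% held a CANNTG and 1.17% held TATATTTA, a sequence chosen after the Myog promoter had been read. CANNTG was found in 3 of the 9 windows, those of Myog and of 2 Mef2c starts. CAGCTG, an E-box form known from muscle genes, was in 0 of the 9 windows and in 16.3% of all promoters. The Mef2a match to the MEF2 consensus began at position -2, and 3.19% of all promoters held such a match. The letters describe these windows only and do not show binding.

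Recovered read totals were between 16616917 and 22120641 per library. Control replicate 4 stood apart, with 14014 genes above 0 against 16144 to 16984 in the other libraries, and with 359 genes of 1 to 5 reads against 2670 to 3181. Myotube markers were abundant in every library, with the 10 markers summing to 20680 to 23266 CPM (each gene's reads scaled to a common library total) in the control group and 15451 to 23011 CPM in the EPS group. Ttn, the giant sarcomere protein, was between 3628 and 7651 CPM. Cycling cell markers summed to 402, 434 and 326 CPM in control replicates 1, 3 and 4, and to 985, 496, 626 and 1431 CPM in EPS replicates 1 to 4, so the groups did not overlap. Of these 10 markers, 9 were higher in EPS at an unadjusted p under 0.05 in limma, where 8.4% of all genes tested were. Birc5, which encodes the mitotic protein survivin, passed P under 0.01 and 2-fold, as did 0.966% of all genes tested in the higher direction. Without control replicate 4 its unadjusted p was 0.0206 in limma and 0 of the 10 passed, against 1.09% of all genes in either direction. By edgeR 4 passed, Mki67, Ccnb1, Birc5 and Plk1, against 1.72% of all genes. In edgeR without control replicate 4 Birc5 alone passed, against 2.37% of all genes in either direction. In bulk samples, fewer cells of a type and less RNA per cell cannot be told apart. The 7 adipocyte-like markers summed to 19.3 to 46.4 CPM in the control group and 24.1 to 31.3 CPM in the EPS group, nearly all from the transcription factor genes Cebpa and Pparg, with Plin1, Cidec and Lep at 0 in every library and Adipoq and Fabp4 at most 0.0931 CPM. The 6 leukocyte and endothelial markers summed to at most 2.92 CPM. Osteoblast-like markers summed to 814 to 1797 CPM in the control group and 580 to 1229 CPM in the EPS group. Most of that sum was Spp1, a secreted matrix gene, at 508 to 1716 CPM over all libraries, and the rest was mainly Runx2 at 38.8 to 77.8 CPM, while Sp7, Bglap and Alpl were at most 0.341 CPM and Ibsp was at 0.

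No gene of the set passed the thresholds used for differentially expressed genes (DEGs), which were P under 0.01, not adjusted, with a change over 2-fold in limma on log2(CPM + 1). Over all genes tested, 1.41% passed, and 0.439% passed as lower in EPS. Adjusted for all 19144 genes by the Benjamini-Hochberg method, 0 of the 10 had p under 0.05 in limma, against 0.141% of all genes. At an unadjusted p under 0.05 there were 4, namely Myod1, Myf6, Id1 and Id3, all lower in EPS, against 3.21% of all genes tested. The fitted change was below 0 for 8 of the 10, compared to 36.7% of all genes tested. The limma shares of lower genes come from CPM without further scaling and were not recomputed after scaling. Over the 12256 genes averaging 1 CPM or more, the median log2 fold change was 0.10, and 0.0052 after quantile normalization. Of all calls, 84 of 269 were lower in EPS without that normalization and 122 of 252 with it. The median log2 fold change of the 10 was -0.61, and that of all genes tested was 0.041. Groups did not overlap for 2 of the 10, Myod1 and Id1, where 2.85% of all genes had all EPS libraries under all control libraries. Count models on whole reads recovered from the CPM gave more calls. By edgeR's quasi-likelihood test 3 of the 10 passed P under 0.01 and 2-fold, namely Myog, Id1 and Id3, against 3.29% of all genes, and DESeq2 called the same 3 against 3.06%. An adjusted p under 0.05 was reached by 2 of the 10 in edgeR, Myod1 and Id1, against 1.51% of all genes, and by Myog as well in DESeq2, against 2.6%. Without control replicate 4, 0 of the 10 were called by edgeR, against 2.37% of all genes, and 0 by limma, against 1.09%, and 3 of the 10 had an unadjusted p under 0.05 in each, against 10.2% of all genes in edgeR and 11.2% in limma. Without EPS replicate 2 the groups did not overlap for 5 of the 10, namely Myod1, Myog, Myf6, Id1 and Id3, where 5.18% of all genes had the EPS libraries lower. Without control replicate 4 the number was 2, where 6.55% of all genes had the EPS libraries lower. It was 3 without control replicate 3 and 2 when any of the remaining libraries was left out.

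**Figure D1:**
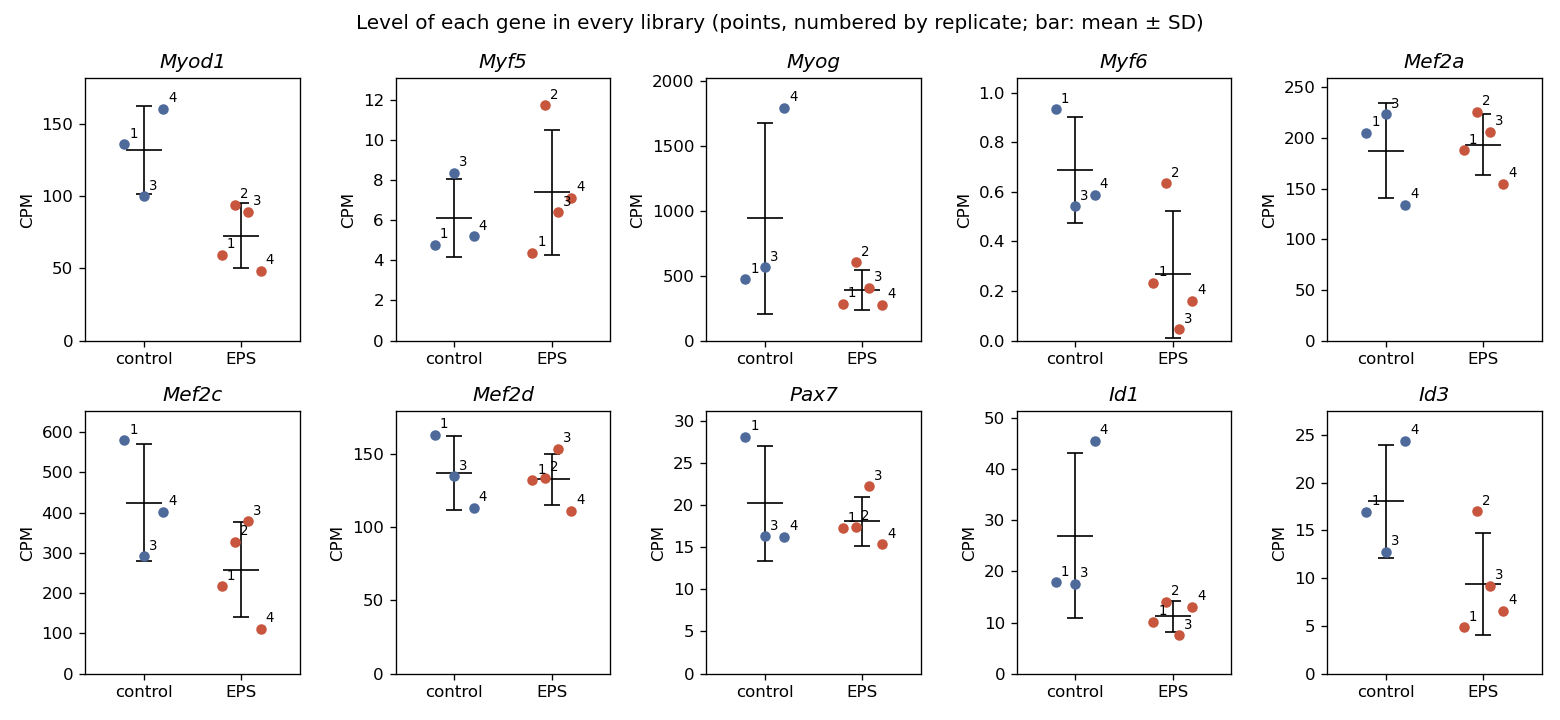
CPM of each of the 10 genes (vertical axes, from 0) in 3 control and 4 EPS libraries, 1 numbered point per library, with bars for the mean ± SD. Myod1 and Id1 are the genes whose groups do not overlap, and control replicate 4 stands far above the other libraries for Myog and Id1.

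Myod1, the factor that can turn fibroblasts into muscle cells, had its lowest values in the EPS group. The gene (ENSMUSG00000009471.4, chr7:46376474-46379099, plus strand of GRCm38) had 136, 99.8 and 160 CPM in control replicates 1, 3 and 4. In EPS replicates 1 to 4 it had 59.2, 93.9, 88.8 and 48.0 CPM. The groups did not overlap, but EPS replicate 2 and control replicate 3 were close to each other. Means were 132 ± 30.3 CPM (SD, n = 3) and 72.5 ± 22.4 CPM (SD, n = 4), a 1.82-fold higher level in control. Its log2 fold change was -0.88 (SE 0.27, 95% interval -1.49 to -0.27) with an unadjusted p of 0.00955 and an adjusted p of 0.236 in limma. Permuting the labels over all 35 splits, an exact two-sided test, gave p = 0.0571, where 0.0286 is the smallest p possible. Thus Myod1 passed the P threshold but not the fold threshold. The unadjusted limma p was above 0.01 without EPS replicate 1 (0.0271) or 4 (0.0226), and without control replicate 1 (0.0273) or 4 (0.0358). It was also above 0.01 with no filter on low values (0.0277), the replicate block (0.0392) or robust empirical Bayes (0.010001). The adjusted p was 0.0492 in edgeR and 0.0250 in DESeq2, and 0.287 in edgeR without control replicate 4.

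Myog (ENSMUSG00000026459.5, chr1:134289989-134292548, plus strand) encodes myogenin, the factor needed for fusion, and was the most abundant of the myogenic bHLH factors. It had 473, 565 and 1794 CPM in control replicates 1, 3 and 4. EPS replicates 1 to 4 had 281, 605, 406 and 278 CPM. The groups overlapped, since EPS replicate 2 was above control replicates 1 and 3. Control replicate 4 was 3.46 times the mean of the other controls. Its log2 fold change was -1.07 (SE 0.48), with an adjusted p of 0.437 in limma and an exact permutation p of 0.143. Without control replicate 4 the change was -0.47, with the groups still overlapping. DESeq2 gave an adjusted p of 0.0303 and edgeR one of 0.0625 with all libraries, and edgeR gave 0.606 without control replicate 4. The ratio of Myog to Myod1, both in CPM, was 6.78 ± 3.98 (SD, n = 3) in the control group and 5.39 ± 0.886 (SD, n = 4) in the EPS group, with overlapping groups.

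Myf5 and Myf6, which lie 6719 bp apart on chromosome 10, were the scarce members of the family. Myf5 (ENSMUSG00000000435.1, chr10:107482908-107486134, minus strand), the earliest of the factors in the embryo, had 4.78, 8.36 and 5.20 CPM in control replicates 1, 3 and 4. It had 4.38, 11.7, 6.39 and 7.12 CPM in EPS replicates 1 to 4. The lowest and the highest library were both EPS libraries, and the log2 fold change of 0.20 had an interval of -0.57 to 0.98. Myf6 (ENSMUSG00000035923.4, chr10:107492853-107494737, minus strand) had 16, 9 and 13 reads in the control libraries and 5, 13, 1 and 3 reads in EPS replicates 1 to 4. These are 0.933, 0.542 and 0.588 CPM against 0.233, 0.633, 0.0457 and 0.159 CPM, where 3 reads are worth 0.136 to 0.181 CPM. Of the EPS libraries only replicate 2 reached the control range. The log2 fold change on the log2(CPM + 1) scale, which understates changes of low genes, was -0.43 with an unadjusted p of 0.0220 and an adjusted p of 0.323 in limma. In edgeR it was -1.47, with an adjusted p of 0.476.

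Mef2c, the MEF2 gene induced in differentiating muscle, had the widest range of the MEF2 factors. This gene (ENSMUSG00000005583.16, chr13:83504034-83667080, plus strand) had 580, 292 and 401 CPM in control replicates 1, 3 and 4. The EPS values were 217, 328, 378 and 111 CPM in replicates 1 to 4. EPS replicate 4 was the lowest library and control replicate 1 the highest, while control replicate 3 lay below EPS replicates 2 and 3. In limma the log2 fold change was -0.80 (SE 0.42, interval -1.75 to 0.15), with an adjusted p of 0.507. Leaving out 1 library at a time gave -1.04 to -0.44, the latter without EPS replicate 4. In edgeR the unadjusted p was 0.0193 and the adjusted p 0.280.

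Mef2a, the MEF2 factor found in most tissues, differed little between the groups. It (ENSMUSG00000030557.17, chr7:67231163-67372858, minus strand) had 205, 223 and 134 CPM in control replicates 1, 3 and 4, compared to 188, 226, 206 and 155 CPM in EPS replicates 1 to 4. Its log2 fold change was 0.065 (interval -0.43 to 0.55), and its sign was negative after quantile normalization, TMM or median-of-ratios scaling, in edgeR and DESeq2, and without control replicate 4. Mef2d (ENSMUSG00000001419.17, chr3:88142372-88172086, plus strand), another MEF2 gene active in muscle, had 163, 135 and 113 CPM in control replicates 1, 3 and 4, compared to 132, 134, 153 and 111 CPM in EPS replicates 1 to 4. Its log2 fold change was -0.040 (interval -0.44 to 0.35), and its sign was positive without EPS replicate 4 or without control replicate 1. The intervals of both genes leave out a 2-fold change, unlike that of Mef2c on the lower side. Both are uncertain in another way, since Mef2a overlaps Lysmd4 on the opposite strand and Mef2d overlaps the antisense gene 1700113A16Rik. Their means over all libraries were 12.8 and 18.4 CPM, and whether strand was used in counting is not given in the sources used here. The ratio of Mef2c to Mef2a, both in CPM, was 2.83, 1.31 and 2.99 in control replicates 1, 3 and 4, compared to 1.16, 1.45, 1.84 and 0.719 for EPS replicates 1 to 4, and the groups overlapped through control replicate 3.

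Pax7 (ENSMUSG00000028736.13, chr4:139737062-139833528, minus strand) had 28.1, 16.3 and 16.3 CPM in control replicates 1, 3 and 4. It had 17.3, 17.4, 22.2 and 15.3 CPM in EPS replicates 1 to 4. Only control replicate 1 lay above the EPS range. A log2 fold change of -0.12 was fitted (interval -0.67 to 0.43, adjusted p = 0.869 in limma), and it was 0.13 without control replicate 1.

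Id1, an inhibitor that is a direct target of BMP signaling, had lower values in each EPS library than in any control library. The gene (ENSMUSG00000042745.9, chr2:152736251-152737410, plus strand) had 17.9, 17.6 and 45.7 CPM in control replicates 1, 3 and 4. It had 10.1, 14.0, 7.49 and 13.1 CPM in EPS replicates 1 to 4. The highest EPS library was below the lowest control library, also without control replicate 4, a pattern that 6.55% of genes had when that library was left out. Means were 27.0 ± 16.1 CPM (SD, n = 3) and 11.2 ± 2.97 CPM (SD, n = 4). The log2 fold change was -1.09 (SE 0.37, interval -1.92 to -0.26), with an unadjusted p of 0.0156 and an adjusted p of 0.282 in limma. The exact two-sided permutation test gave p = 0.0286, the smallest it can give. Without control replicate 4 the change was -0.65, with an unadjusted p of 0.0432 in limma. The adjusted p was 0.0210 in edgeR and 0.00677 in DESeq2, and 0.266 in edgeR without control replicate 4.

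Id3 (ENSMUSG00000007872.3, chr4:136143497-136145755, plus strand), the other Id gene of the set, had 17.0, 12.8 and 24.4 CPM in control replicates 1, 3 and 4. It had 4.84, 17.0, 9.18 and 6.59 CPM in EPS replicates 1 to 4. EPS replicate 2 lay inside the control range, and the other EPS libraries lay below it. The log2 fold change was -0.96 (SE 0.40, interval -1.86 to -0.056), with an adjusted p of 0.398 in limma and an exact permutation p of 0.143. Without EPS replicate 2 it was -1.27 and passed the DEG thresholds, with an adjusted p of 0.214. In edgeR the adjusted p was 0.121 with all libraries and 0.508 without control replicate 4. The ratio of Myod1 to Id1, an activator against an inhibitor, was 5.59 ± 2.04 (SD, n = 3) in the control group and 7.01 ± 3.47 (SD, n = 4) in the EPS group. That of Myod1 to Id3 was 7.46 ± 0.789 (SD, n = 3) and 8.68 ± 2.91 (SD, n = 4), and both ratios overlapped between the groups.

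**Figure D2:**
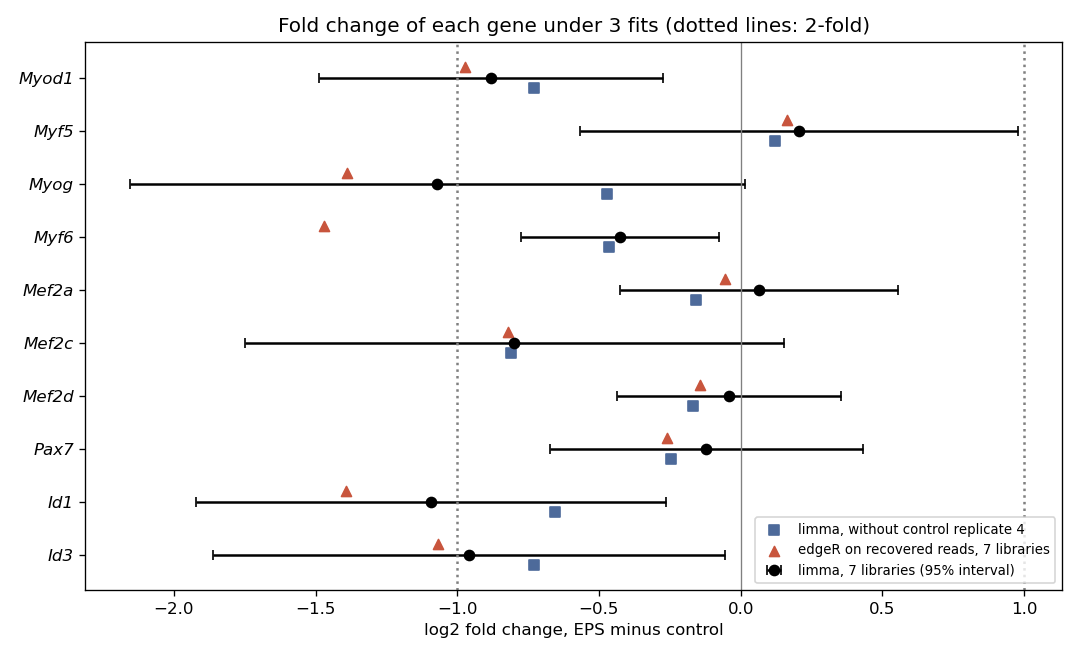
Log2 fold change of each gene, EPS minus control (horizontal axis), from limma with its 95% interval, from limma without control replicate 4, and from edgeR on recovered reads. The limma intervals of Myod1, Myf6, Id1 and Id3 lie below 0, and leaving out control replicate 4 moves Myog from -1.07 to -0.47 and Id1 from -1.09 to -0.65.

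Per kb of exon sequence, Myog led the set in 7 of 7 libraries. With lengths taken as the union of annotated exons, the level of Myog had a median over all libraries of 316 CPM per kb and a range of 186 to 1200 CPM per kb. Myod1 came next with a median of 50.5 CPM per kb, above Mef2d in 7 of 7 libraries. Neighbours in the order Mef2d, Mef2c, Id1 and Mef2a were not separated, since each stood above the next in only 3 to 5 of 7 libraries, although the lowest library of Mef2d, at 18.6 CPM per kb, was above the highest of Mef2a, at 15.4 CPM per kb. With the longest transcript in place of the union, Mef2c was above Myod1 in 4 of 7 libraries. Mef2a was then above Mef2d in 7 of 7 libraries, with medians of 37.1 and 24.8 CPM per kb. The order of Mef2a and Mef2d thus depended on the length used. Myf5 and Pax7, with medians of 3.07 and 2.95 CPM per kb, were not separated either. Myf6 was lowest, with a median of 0.429 CPM per kb. Within the myogenic bHLH family, Myog made up 80.6 to 93.1% of the summed CPM per kb in the control libraries and 84.2 to 87.7% in the EPS libraries.

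**Figure D3:**
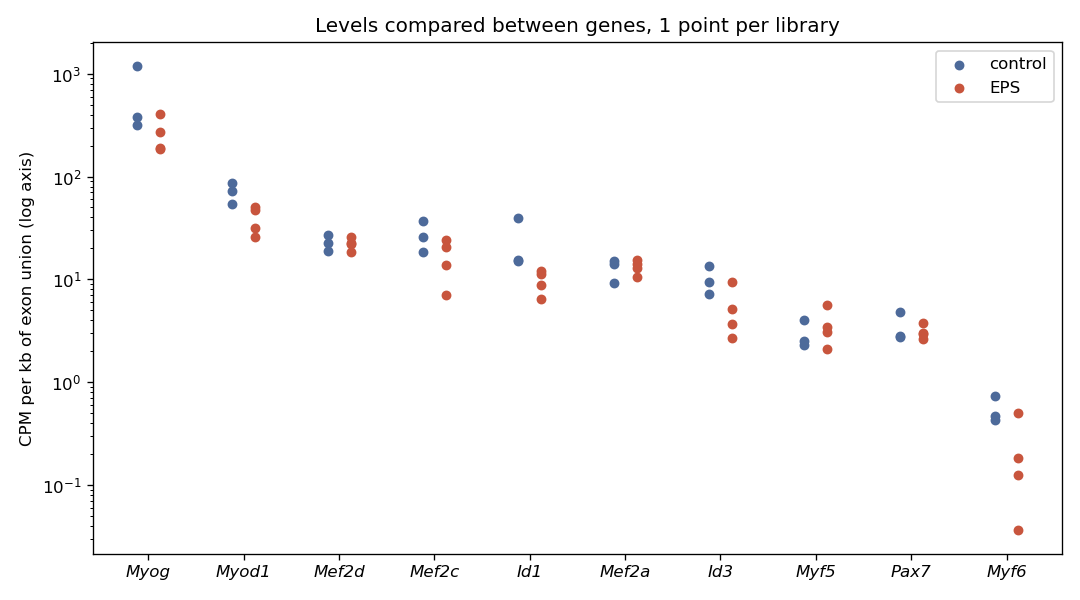
CPM per kb of exon union (log axis) for the 10 genes, ordered by mean level, 1 point per library and colored by group. Myog lies above every other gene in each library, and Myf6 lies lowest.

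The set was not uniform among the EPS libraries. In the CPM as deposited, EPS replicate 2 was the highest EPS library for 7 of the 10 genes. EPS replicate 4 was the lowest for 6, namely Myod1, Myog, Mef2a, Mef2c, Mef2d and Pax7. The median-of-ratios scaling factor was 1.10 for EPS replicate 2 and 0.98 to 1.04 for the other EPS libraries. The count of 7 thus partly reflects generally higher CPM in that library. EPS replicates 2 and 4 were also the EPS libraries with the lowest and the highest sum of cycling cell markers, 496 and 1431 CPM. Over all 7 libraries, the order of Myod1 was the exact reverse of that sum, from 160 CPM of Myod1 beside 326 CPM of markers in control replicate 4 to 48.0 CPM beside 1431 CPM in EPS replicate 4. This was noticed after the values were seen, the libraries share their groups and their totals, and it is a description of 7 points. The same exact reverse order was found for 0.0865% of the 9246 genes with a mean of at least 10 CPM, the markers left out. After TMM or median-of-ratios scaling, Spearman's rho of Myod1 with the sum was -0.96 in place of -1. In the CPM as deposited, rho was -0.86 for Myog, Id1 and Id3, -0.82 for Mef2c and -0.71 for Myf6. It was -0.36 for Mef2d, -0.21 for Pax7, 0 for Mef2a and 0.071 for Myf5. After TMM scaling it was -0.75 for Id1, -0.89 for Myog and -0.93 for Id3. No share over all genes was computed for these values. The marker sum itself did not overlap between the groups, so a gene lower in EPS tends to a negative rho. The part of the cycling markers in the lower Myod1, Myog, Id1 and Id3 was not tested.

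**Figure D4:**
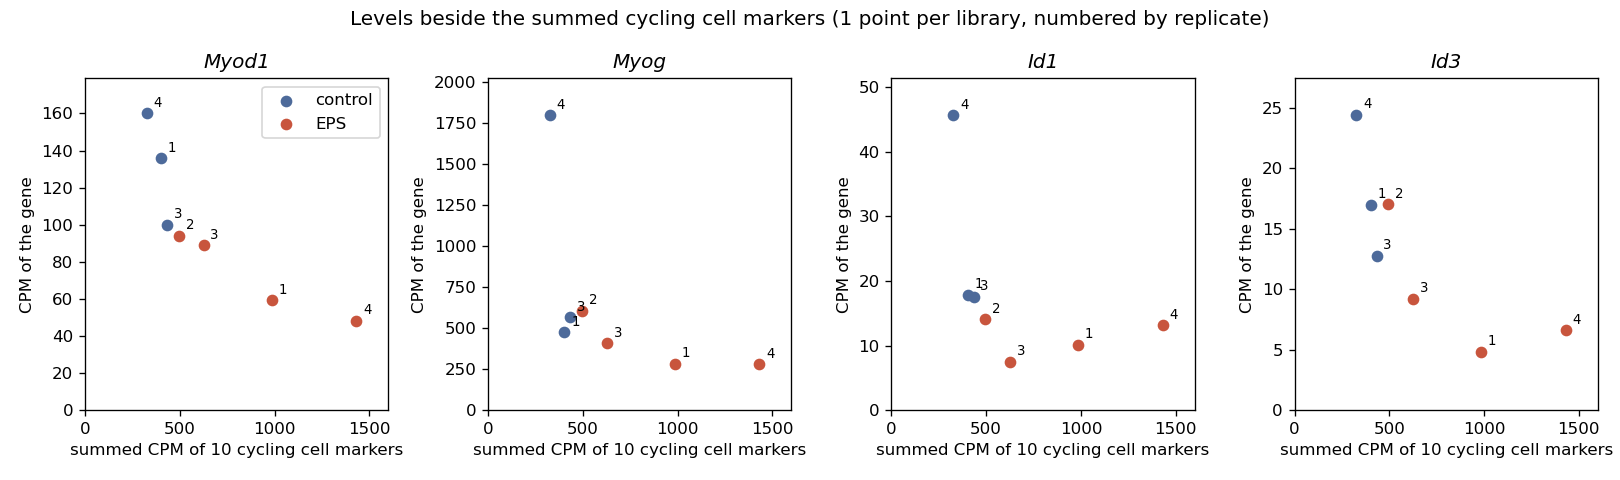
CPM of Myod1, Myog, Id1 and Id3 (vertical axes) against the summed CPM of 10 cycling cell markers (horizontal axes), 1 point per library, numbered by replicate and colored by group. Each library with a higher marker sum has a lower Myod1, and the EPS libraries lie at sums of 496 to 1431 CPM.

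The wider network around the set was read from lists of known partners and targets. The E proteins, the obligate partners of the myogenic bHLH factors, numbered 3, and 0 passed the DEG thresholds. Tcf4, the most abundant of them, had a mean of 381 ± 108 CPM (SD, n = 3) in the control group and 438 ± 126 CPM (SD, n = 4) under EPS, with overlapping groups. Of 14 other bHLH inhibitors and repressors of the myogenic factors, 0 passed, and their median log2 fold change was -0.11. Bhlhe40, the most abundant, had 211 ± 44.3 CPM (SD, n = 3) and 200 ± 48.7 CPM (SD, n = 4). Id2 and Id4, the other Id genes, are on that list.

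Among 16 MEF2 repressors and cofactors and 12 MyoD cofactors, of which 11 were tested, 0 passed the thresholds in either list. Smyd1, a muscle histone methyltransferase and the most abundant of the MEF2 list, had 141, 137 and 151 CPM in control replicates 1, 3 and 4. It had 129, 110, 126 and 115 CPM in EPS replicates 1 to 4. All EPS libraries were below all control libraries, as for 2.85% of all genes. The log2 fold change of Smyd1 was -0.25, with an adjusted p of 0.503 in limma. Hdac7, a class II histone deacetylase that represses MEF2, was singled out after its values were seen. It had 48.7, 49.9 and 51.4 CPM in control replicates 1, 3 and 4, compared to 97.4, 74.2, 78.9 and 93.4 CPM in EPS replicates 1 to 4. The groups did not overlap, where 7.76% of all genes had the EPS group higher without overlap. The log2 fold change of 0.76 (SE 0.14) had an unadjusted p of 0.000570 and an adjusted p of 0.0965 in limma. Hdac7 thus passed the P threshold and not the fold threshold. Of the 16 genes of the MEF2 list, 3 had groups without overlap. The other was Srf, also named after its values were seen. It was lower in EPS, with a log2 fold change of -0.43 and an unadjusted p of 0.0625 in limma. The RNA helicase Ddx5, the most abundant MyoD cofactor, had 661 ± 133 CPM (SD, n = 3) and 654 ± 189 CPM (SD, n = 4).

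Vcam1, an adhesion molecule of satellite cells, was the only gene of the 14 satellite and reserve cell markers, 13 of them tested, that passed the thresholds, where 0.439% of all genes tested passed as lower. It had 92.1, 119 and 90.5 CPM in control replicates 1, 3 and 4. EPS replicates 1 to 4 had 56.3, 37.2, 30.6 and 50.6 CPM, all below every control library, as for 2.85% of all genes. The log2 fold change was -1.21 (SE 0.23), with an adjusted p of 0.0914 in limma and 0.00380 in edgeR. Without control replicate 4 it was -1.28. Over the 13 markers the median log2 fold change was -0.14. Rbl2, a retinoblastoma family gene named after its values were seen, was the other gene without overlap and lay in the opposite direction, where 7.76% of all genes had the EPS group higher without overlap, with a log2 fold change of 0.44 and an unadjusted p of 0.0557 in limma.

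Contractile and differentiation genes under the control of myogenic bHLH factors numbered 36, and 0 passed the thresholds. Their median log2 fold change was -0.20, and 4 were lower at an unadjusted p under 0.05 and 0 were higher, against 3.21% of all genes tested lower. The 4, named after their values were seen, were Gm7325, listed under an older symbol of the fusion micropeptide myomixer, the cell cycle inhibitor Cdkn1c, the myosin-binding gene Mybph and the Z-disc gene Actn2. Actn2 had 99.4, 48.8 and 78.7 CPM in control replicates 1, 3 and 4, compared to 33.5, 30.4, 48.1 and 34.4 CPM in EPS replicates 1 to 4. Its groups did not overlap, as for 2.85% of all genes in that direction, although EPS replicate 3 came close to control replicate 3. Its log2 fold change was -0.99 with an unadjusted p of 0.00405 and an adjusted p of 0.177 in limma. Groups did not overlap for 2 of the 36, Actn2 and Cdh15, both lower in EPS. Cdh15, also named after its values were seen, had a log2 fold change of -0.34 and an unadjusted p of 0.0993 in limma. The summed level of the list was 37632 to 44114 CPM in the control group and 28499 to 39728 CPM in the EPS group. By edgeR 3 of the 36 passed, all lower, namely Gm7325, Cdkn1c and Actn2, against 1.57% of all genes. In edgeR without control replicate 4 only Actn2 passed, against 2.37% of all genes in either direction. At least 1 of the 36 passed in 13 of the alternatives run, with Actn2 in 9 of them and Gm7325 or Cdkn1c in the others.

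Of the 15 MEF2 target genes, 0 passed in limma. At an unadjusted p under 0.05, 2 were higher, against 8.4% of all genes, and 1 was lower, against 3.21%. By edgeR 1 passed, Xirp2, which was higher, against 1.72% of all genes. In edgeR without control replicate 4, 0 passed, against 2.37% of all genes in either direction. The sarcoplasmic reticulum gene Srl, the most abundant, had 857, 787 and 705 CPM in control replicates 1, 3 and 4, compared to 531, 549, 660 and 415 CPM in EPS replicates 1 to 4. Its groups did not overlap, as for 2.85% of all genes in that direction, and its log2 fold change was -0.55 with an adjusted p of 0.382 in limma. Groups did not overlap for 3 of the 15, with Srl and Myoz1 lower and Myoz2 higher, where 7.76% of all genes were higher without overlap. Myoz1 was named after its values were seen. Myoz2 and Xirp2, both sarcomere-associated genes, were the 2 with higher values, so genes of that list lay on both sides. BMP and SMAD target genes, the class to which Id1 and Id3 belong, numbered 14, of which 0 passed in limma. At an unadjusted p under 0.05 in limma, 2 were higher, Msx2 and Grem1, against 8.4% of all genes. In the same test 0 were lower, against 3.21%. Groups did not overlap for 5 of the 14, with Smad7 and Skil lower, against 2.85% of all genes, and Smad9, Msx2 and Grem1 higher, against 7.76%. Msx2 was scarce, with 0.0583, 0.301 and 0 CPM in control replicates 1, 3 and 4. It had 0.698, 0.536, 0.685 and 0.797 CPM in EPS replicates 1 to 4. By edgeR 1 passed, Msx1, which was lower, against 1.57% of all genes, and 0 passed without control replicate 4, against 2.37% in either direction. These genes were named after their values were seen. Ski had the highest control mean of the list, at 225 ± 27.4 CPM (SD, n = 3). Its EPS mean, 226 ± 15.9 CPM (SD, n = 4), was below that of Grem1, 270 ± 82.8 CPM (SD, n = 4).

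Genes whose level followed that of a member most closely over the 7 libraries were listed by Pearson's r of log2(CPM + 1), among 9255 genes with a mean of at least 10 CPM, as a description with no test. For Myod1 they were Mdfic (r = 0.99), Gabbr1 and Bcam. Mdfic had 61.9, 56.3 and 68.7 CPM in control replicates 1, 3 and 4, compared to 45.4, 55.6, 56.1 and 39.9 CPM in EPS replicates 1 to 4. For Myog they were BC051019, Stoml1 and H1f0, and r of BC051019 was 0.99 with all libraries and 0.95 without control replicate 4. Mef2c was followed most closely by Adamtsl2 (r = 1.00), Ntn4 and Ppfia4, Mef2a by Vgll3 (r = 0.99), Ccdc8 and Filip1l, and Mef2d by Pacs2, Slc6a6 and Phf21a. The closest genes to Pax7 were Brd1, Inppl1 and Csnk2a1. Stk40, Ier2 and Fubp1 were closest to Id1, and LOC106740, Lix1 and 1810026J23Rik to Id3. No gene was shared between these lists. High values of r arise in any such list when few libraries are set against many genes.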

How the data were processed

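The data are 1 CPM value per gene and library for 3 control and 4 EPS libraries of C2C12 myotubes. Poly(A) RNA was made into directional libraries and read from both ends over 100 bp. Per the submitters' processing notes the reads were mapped to GRCm38 with STAR 2.5.4b, and the authors deposited CPM, each gene's reads scaled by the library total. The read counter, annotation and strand setting are not given in the sources used here. The study's methods name a log2 transformation and quantile normalization, which the deposited values do not carry. In each library 100% of values fell on multiples of 1 read within 0.01 read (above 1000 reads, within 1e-05 of the reads), so whole reads were recovered.

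All genes with a read in any library were fitted as log2(CPM + 1) in limma 3.58.1 (R 4.3.3), with 1 term for EPS, all 7 libraries and a trended empirical Bayes prior. DEGs had P under 0.01, not adjusted, and a change over 2-fold, and Benjamini-Hochberg adjusted p-values cover all genes tested. A count test was not the reported one because the deposited unit is CPM. On recovered reads, edgeR 4.0.16 called 629 genes and DESeq2 1.42.0 called 585. Both were alternatives, beside pseudocounts of 0.1 and 0.5, no filter on low values, a minimum mean of 1 CPM, other scalings, robust empirical Bayes, a P threshold of 0.001, the replicate number as a block, and leaving out each library. EdgeR without control replicate 4 was added after seeing the data. Single genes had an exact two-sided permutation test. Tests were tried on simulated reads.

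The set and all lists were chosen with earlier results of these data known. All 10 genes of the set are named, with the called genes of each other list or, where none was called, the most abundant gene, and for likeness the 3 closest genes. Other genes are marked as chosen after their values were seen. Coordinates and lengths come from GENCODE M21 (GRCm38) by gene symbol, and promoter sequences are from RefSeq, GRCm38.p6. The floor of 3 reads covers counting error only.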

Additional observations from a re-analysis of the deposited data

How the results depend on the processing

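Against 0 genes of the set called in limma, 1 was called, Id1 each time, under quantile normalization, TMM scaling, median-of-ratios scaling, a pseudocount of 0.1 or a minimum mean of 1 CPM, and 3 were called by edgeR and by DESeq2. Leaving out 1 library gave 0 to 2, with Myod1 and Id3 called without EPS replicate 2 and Myod1 without control replicate 3. The set's non-overlapping genes numbered 2 to 5 when 1 library was left out, with 5 without EPS replicate 2, where the share of all genes with EPS lower also rose, from 2.85% to 5.18%. Over all genes, 269 calls became 601 with a pseudocount of 0.1, 169 with no filter on low values, 629 by edgeR, 453 by edgeR without control replicate 4, 585 by DESeq2, 106 at a P threshold of 0.001 and 161 with the replicate block, and 209 to 325 when 1 library was left out. Calls were 185 higher and 84 lower in limma, while 122 of 252 were lower after quantile normalization and 120 of 254 after median-of-ratios scaling. Over the 12256 genes averaging 1 CPM or more, the median change was 0.10 on the log2 scale before and 0.0052 after quantile normalization. Myf5 changed sign to -0.019 with the replicate block and without EPS replicate 2. Mef2a changed sign to -0.0011 with quantile normalization, -0.048 with median-of-ratios scaling, -0.036 with TMM scaling, -0.054 in edgeR, -0.066 in DESeq2, -0.014 with the replicate block and without EPS replicate 2, -0.16 without control replicate 4, and -0.24 in edgeR without control replicate 4. Mef2d became 0.040 without EPS replicate 4 and 0.093 without control replicate 1, and Pax7 became 0.13 without control replicate 1. Leaving out 1 library at a time gave -0.019 to 0.42 for Myf5, -0.16 to 0.21 for Mef2a, -0.17 to 0.093 for Mef2d and -0.25 to 0.13 for Pax7. The causes were not tested. Myod1, Myog, Mef2c, Id1 and Id3 stayed below 0 under all alternatives run, and Myf6 under all but the minimum mean of 1 CPM, where it was not tested. Same-numbered libraries had correlated deviations of 0.25, -0.45 and 0.068 for numbers 1, 3 and 4, so the numbers were not read as pairs. With the replicate block 0 genes of the set were called, and the log2 fold change of Vcam1 was -1.15, no longer past the threshold. Of the contractile list, 0 genes were called in limma, 3 by edgeR and by DESeq2, and 1 under a pseudocount of 0.1, each of the 3 scalings, the replicate block, edgeR without control replicate 4, and without EPS replicates 1, 2 or 3 or control replicates 1 or 3. Of the MEF2 targets, 2 were called by DESeq2 and 1 by edgeR, under a pseudocount of 0.1 or a minimum mean of 1 CPM, and without EPS replicate 2 or control replicate 1. Of the BMP and SMAD targets, 2 were called by DESeq2 and 1 by edgeR, under a pseudocount of 0.1, and without EPS replicate 1 or control replicate 1. Depth limits Myf6, at 1 to 16 reads per library.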
